A study of Mus musculus with 28 samples.

Results

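The baseline transcriptome of hippocampal field CA1 was described from the 10 libraries of wildtype mice given vehicle, of 28 libraries in the series. They were chosen by their titles, and every value below was read from the raw gene counts of those libraries unless another source is named. Wildtype mice were littermates of mice carrying the CamkIIδC transgene, drank vehicle from 2 months of age for 4 weeks, and gave CA1 tissue at 3 months. The other 18 libraries came from transgenic mice of the same age, 9 given vehicle and 9 given vorinostat, an inhibitor of histone deacetylases, in the drinking water. They serve below only to ask whether an order or a pattern seen in wildtype libraries recurs. The promoter of the transgene is not given in the sources used here, and mice of this kind are known, as background, as a heart failure model in which the kinase is made in heart muscle. Both sexes were included, with the sex of each mouse not given in the labels. Whether every library stands for a separate mouse is not stated, so a p-value here sets a difference against the scatter of these libraries, some of which may be technical.

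CA1 is the hippocampal field whose pyramidal neurons receive the Schaffer collaterals from CA3 and send the output of the hippocampal circuit to the subiculum and cortex. Its excitatory synapses are a textbook site of long-term potentiation, in which calcium entering through NMDA receptors binds calmodulin and activates CaMKII, which then acts on AMPA receptors. A dissected piece of CA1 also holds interneurons, astrocytes, oligodendrocytes, microglia and vessels, and neighbouring fields lie within a knife's width of it.

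Polyadenylated RNA was sequenced as 50 bp single-end reads, and counts per gene were deposited. The 10 libraries held 20230085 to 33191857 counts, with a median of 23142040. Wildtype vehicle 5 was the deepest, and the other 9 held at most 25828256. Levels within a library are given as TPM, counts per exon length scaled to the same sum in every library, and levels of 1 gene across libraries as CPM with TMM scaling. Wildtype vehicle 2 stood apart in composition: mitochondrially encoded genes held 6.41% of its counts against 2.84 to 4.11% in the other 9, and hemoglobin genes stood at 101 CPM against 19.5 to 32.97. Results that rest on that library are given with this in view, and the part of either measure in them was not tested. The 45 pairs of libraries differed by a chi-square per degree of freedom of 4.82 to 63.0, so none was merged with another.

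The tissue label was checked first against 4 markers of CA1 pyramidal neurons. Camk2a, the alpha subunit of CaMKII, stood at 2322 ± 354 TPM (SD, n = 10) and at rank 22 of all genes. Nrgn, neurogranin, a postsynaptic calmodulin-binding peptide, stood at 2027 ± 224 TPM and rank 26. Wfs1, a protein of the endoplasmic reticulum that marks dorsal CA1, stood at 325 ± 39.9 TPM and rank 374. Fibcd1, a membrane protein with a fibrinogen-like domain that is also used as a CA1 marker, stood at 264 ± 85.1 TPM and rank 523. All 12 genes of the CA1 list reached 1 CPM in all 10 libraries. No other brain region was measured, so a high level of these genes does not by itself tell CA1 from other regions. The 4 markers did not behave alike between libraries: Wfs1 ran from 260 over a median of 293 to 362 CPM, while Fibcd1 ran from 150 over a median of 294 to 423 CPM. Fibcd1 was lowest in wildtype vehicle 1 and 2, and Wfs1 was at 295 CPM in both.

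The promoter stretches of 3 of these markers are shown because they belong to the markers used in this check. They are the 250 bases before the start given by RefSeq for GRCm38.p6, read 5′ to 3′ on the gene's strand, with capitals for matches on either strand to the GC box GGGCGG, the CCAAT box CCAAT, the TATA box TATAAA and the cAMP response element TGACGTCA. Fibcd1 lies at chr2:31846006-31846255 on the minus strand, Wfs1 at chr5:36988983-36989232 on the minus strand and Nrgn at chr9:37552746-37552995 on the minus strand.
Fibcd1: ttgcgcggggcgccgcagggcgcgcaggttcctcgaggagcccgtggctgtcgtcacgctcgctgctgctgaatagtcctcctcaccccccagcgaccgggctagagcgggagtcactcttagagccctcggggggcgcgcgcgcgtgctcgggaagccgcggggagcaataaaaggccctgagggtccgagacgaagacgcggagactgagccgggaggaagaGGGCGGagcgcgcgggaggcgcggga
Wfs1: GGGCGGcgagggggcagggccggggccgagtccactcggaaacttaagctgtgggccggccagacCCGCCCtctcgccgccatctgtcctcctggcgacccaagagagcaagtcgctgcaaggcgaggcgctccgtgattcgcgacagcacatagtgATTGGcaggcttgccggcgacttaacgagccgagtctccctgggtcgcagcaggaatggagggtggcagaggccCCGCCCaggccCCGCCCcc
Nrgn: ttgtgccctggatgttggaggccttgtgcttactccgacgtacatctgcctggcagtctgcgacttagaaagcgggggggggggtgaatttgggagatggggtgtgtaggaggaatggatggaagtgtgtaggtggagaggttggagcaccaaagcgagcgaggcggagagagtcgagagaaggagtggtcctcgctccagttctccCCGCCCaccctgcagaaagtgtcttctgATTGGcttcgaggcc
Each held GGGCGG, once in Fibcd1 and Nrgn and at 4 places in Wfs1, and none held TATAAA or TGACGTCA. Of 27025 genes with a window, 33% held GGGCGG, 34.5% CCAAT, 13% TATAAA and 1.6% TGACGTCA. Of the 12 CA1 genes 6 had a window in the table, and 5 of those 6 held GGGCGG. Their windows were also rich in G and C, with a median of 70.6% against 52.0% over all windows. A match describes these letters only.

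Counts were spread over many genes. Of 48709 gene identifiers, 13903 reached 1 CPM in all 10 libraries and 17067 had no count in any of them. Among 21695 protein coding genes, 12897 (59.4%) reached 1 CPM in all 10, and protein coding genes held 97.0 to 97.4% of the counts of a library. The 10 most abundant genes held 5.29 ± 0.748% of counts, the 100 most abundant 17.4 ± 0.796% and the 1000 most abundant 49.4 ± 0.529% (SD, n = 10). Between 999 and 1083 genes made up 50% of a library. Wildtype vehicle 2 had the highest share in its 10 leading genes, 7.27%, and the other 9 had 4.41 to 5.36%.

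The median protein coding gene with a wildtype count stood at 12.8 TPM, the 90th percentile at 101 TPM and the 99th at 548 TPM, and 74 of 18080 such genes were above 1000 TPM. The order of genes was close between libraries: over 17234 genes at 1 TPM or more, Spearman's rho between pairs of libraries ran from 0.972 to 0.989, a description across genes that share a tissue and a method. Classes of genes differed in how many members were detected. Of 1105 olfactory receptor genes 1 reached 1 CPM in all 10 libraries, of 291 vomeronasal receptor genes 0, and of 39 Hox genes, which pattern the hindbrain and spinal cord, 0. Of 53 keratin genes, which encode filaments of epithelia, 7 reached it and 7 had no count, and of 365 Zfp zinc finger genes 305 reached it. The 16 genes of a list for other organs summed to 14.3 ± 1.64 TPM, and 1 of them reached 1 CPM in all 10 libraries. The highest was Myh6, a myosin heavy chain of heart, at 5.55 ± 1.06 TPM, and Alb, the serum albumin of liver, stood at 0.0521 ± 0.0563 TPM.

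The most abundant transcripts per length were mitochondrial. The 9 highest genes by mean TPM were all encoded in the mitochondrial genome, 7 of them subunits of respiratory complexes and 2 its ribosomal RNAs, and together they made up 13.8% of all TPM. mt-Cytb, cytochrome b of complex III, led at 27537 ± 5446 TPM, ahead of mt-Co1, a core subunit of cytochrome oxidase, at 26118 ± 4427 TPM and mt-Nd1 of complex I at 25252 ± 6188 TPM (SD, n = 10). The SDs are wider than the gaps between these means, yet within libraries mt-Cytb was above mt-Nd1 in all 10 and above mt-Co1 in 9 of 10. In wildtype vehicle 2 mt-Cytb stood at 41744 TPM, above the other 9. The counts show a limit here. Of 13 protein coding genes of that genome, mt-Co2, mt-Co3, mt-Nd3, mt-Nd4l and mt-Atp8 are listed at 0 in all 10 libraries and mt-Atp6 stands at no more than 0.270 TPM, so each mitochondrial share given here is a lower bound. mt-Nd6 lies on the other strand than its neighbours, and without strand its reads cannot be told apart from antisense ones.

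**Figure D1:**
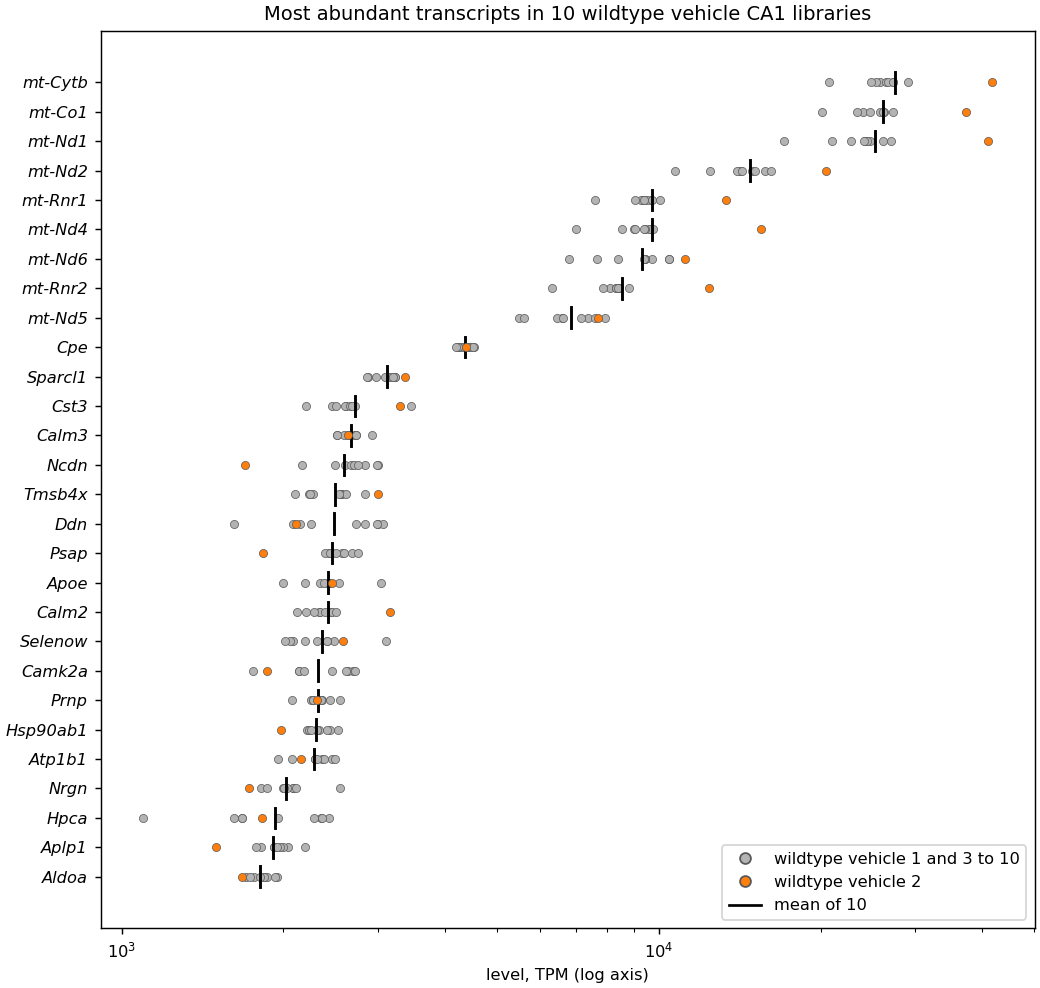
Shown are 28 of the 30 most abundant transcripts (rows) with their level in TPM on a log axis; each point is 1 of the 10 wildtype vehicle libraries, orange is wildtype vehicle 2 and black lines are means. The 9 mitochondrial genes lie above 4356 TPM, the mean of Cpe, and for mt-Cytb the orange point at 41744 TPM lies right of the other 9.

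The other 21 of the 30 were nuclear genes of varied function. Cpe (ENSMUSG00000037852; GRCm38 chromosome 8, 64592542 to 64693054, minus strand), carboxypeptidase E, which trims neuropeptide precursors in secretory granules, was first among nuclear genes in each of the 10 libraries. Its level ran from 4198 over a median of 4351 to 4533 TPM, so its highest library was close to its lowest. Sparcl1, a matrix protein released by astrocytes that promotes synapse formation, followed at 3114 ± 162 TPM, and Cst3, the protease inhibitor cystatin C, at 2719 ± 376 TPM. Both are made largely outside pyramidal neurons, as background. Below these were Ncdn, neurochondrin, at 2593 ± 397 TPM, and Ddn, dendrin, a postsynaptic protein whose RNA is carried into dendrites, at 2483 ± 501 TPM. Ddn spread from 1616 to 3060 TPM and was lowest in wildtype vehicle 1.

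Apoe, the main lipid carrier of brain and a product of astrocytes, stood at 2422 ± 266 TPM, and Psap, the precursor of lysosomal saposins, at 2467 ± 251 TPM. Atp1b1, the beta subunit of the sodium pump, stood at 2277 ± 171 TPM. Prnp, the prion protein, at 2321 ± 126 TPM, Hsp90ab1, a cytosolic chaperone, at 2301 ± 150 TPM, and Aldoa, aldolase A of glycolysis, at 1811 ± 92.1 TPM varied less. From rank 12 to rank 30 means fell only from 2719 to 1811 TPM with SDs of up to 501 TPM, so the order given is that of the means. Of the 30 genes, 21 were in the top 30 of every library, and 38 genes entered the top 30 of at least 1.

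Some genes known to be abundant in any cell stood low, a limit of the deposited counts that bears on every ranking here. Gapdh, the glycolytic enzyme used as a loading control, was at 18.5 ± 1.61 TPM, Actg1, cytoplasmic gamma actin, at 2.52 ± 0.348 TPM and Rps2, a protein of the small ribosomal subunit, at 4.69 ± 0.507 TPM (SD, n = 10). Each of them has near-identical copies elsewhere in the genome, as background, and how reads matching several genes were treated is not given in the sources used here. By comparison Actb, beta actin, stood at 1304 ± 93.4 TPM and Fth1, the ferritin heavy chain, at 1550 ± 173 TPM. The 3 named genes were chosen after their values were seen, and why they stand low was not tested.

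Among long noncoding RNAs, Meg3 (ENSMUSG00000021268; GRCm38 chromosome 12, 109541001 to 109571726, plus strand), an imprinted transcript made from the maternal chromosome, was far ahead. It stood at 1694 ± 225 TPM, and at 7370 ± 789 CPM from 6249 in wildtype vehicle 2 to 8606 in wildtype vehicle 10. Malat1, a nuclear RNA of speckles, followed at 508 ± 81.0 TPM and Miat, another nuclear RNA of neurons, at 368 ± 37.2 TPM. Peg13, an imprinted transcript within Trappc9, stood at 297 ± 37.2 TPM, Mir124a-1hg, a host of the neuronal microRNA miR-124, at 236 ± 20.2 TPM, and Rian, a neighbour of Meg3 in the same imprinted domain, at 146 ± 12.9 TPM. Mature microRNAs were not measured by this assay. The imprinted list as a whole, 22 genes with Meg3 its highest member, summed to 4285 ± 385 TPM, and 19 members reached 1 CPM in all 10 libraries. Peg3, an imprinted zinc finger gene of the paternal chromosome, stood at 176 ± 28.1 TPM.

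The promoter of Meg3 is shown because, unlike those of the CA1 markers, it holds both a cAMP response element and a TATA box. The stretch is the 250 bases before the RefSeq start at chr12:109540746-109540995, plus strand, GRCm38.p6, in capitals as above.
Meg3: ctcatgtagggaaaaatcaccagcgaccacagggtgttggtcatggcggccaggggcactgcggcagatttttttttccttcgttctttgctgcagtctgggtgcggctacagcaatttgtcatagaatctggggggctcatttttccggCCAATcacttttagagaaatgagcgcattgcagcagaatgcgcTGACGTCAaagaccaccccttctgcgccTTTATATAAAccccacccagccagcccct
TGACGTCA begins 57 bases before the start, TATAAA 25 bases before it, on the same strand, and a match on the other strand overlaps the latter. CCAAT begins 100 bases before the start. Over all windows 1.6% held TGACGTCA and 13% TATAAA, shares that apply to each motif on its own.

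The balance within 87 gene families, listed by role with earlier results of these data known, was then read from the share each member had of its family's summed TPM. The Hox genes, with no member at 1 TPM, were left aside. In 69 of the other 86 families the leading paralog was the same gene in all 10 libraries, and in 64 of these it also led in all 18 transgenic libraries, which had no part in choosing it. The leader held over 50% of the family in 54 families and over 90% in 10. The median share was 59.9%, and its SD over the 10 libraries had a median of 2.34 percentage points. TPM depends on the exon length used. The leader by merged exon length was also the leader with the longest transcript in 75 of 86 families, with the median transcript in 65 and with no length at all in 71, and under all 3 in 57. Among the leaders described below, Calm3, Prkar1b, Hpca, Gria1, Grin1, Htr1a, Ntrk2, Syn1, Cplx1, Shank1, Dlgap3, Nrxn2, Kcnd2, Tubb4a, Map1a, Kmt2a, Nr4a2 and Bcl11b lost the lead to a paralog under at least 1 of the 3.

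**Figure D2:**
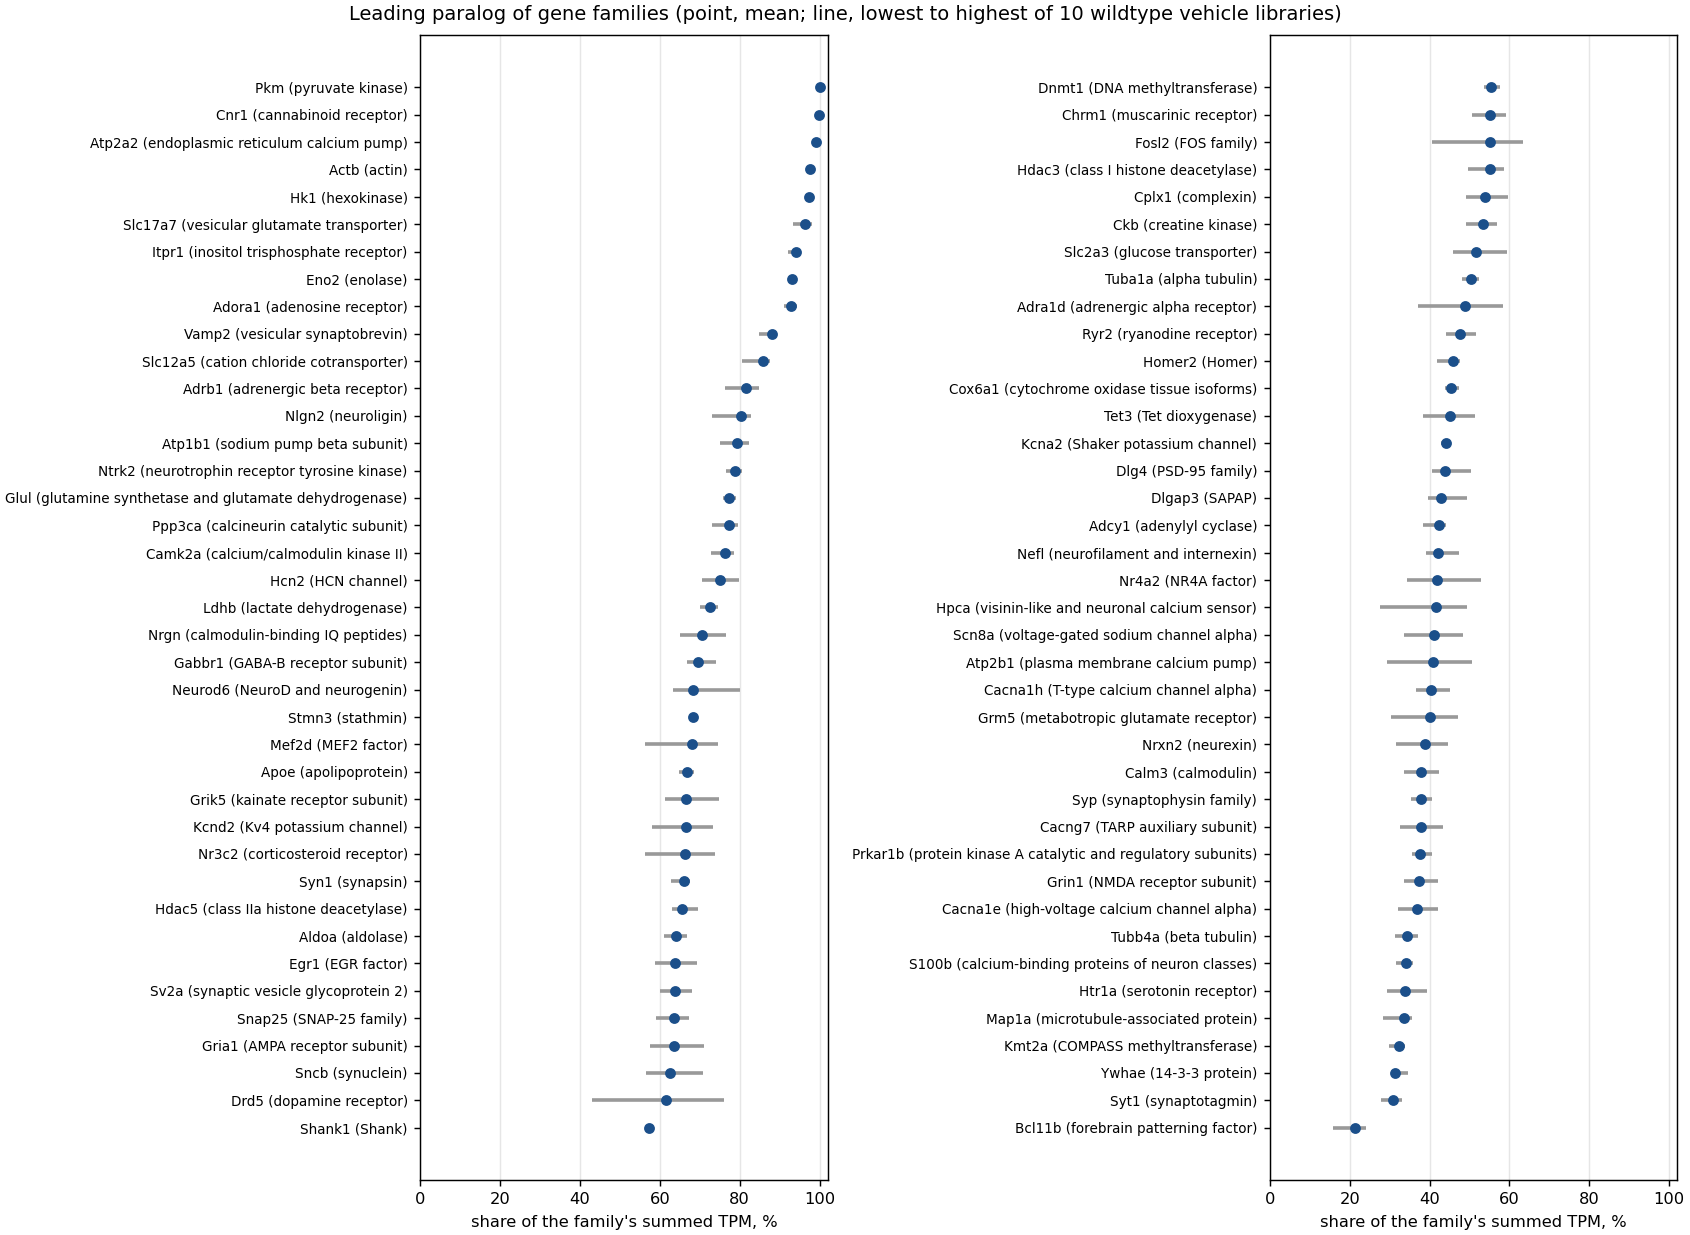
Share of the summed TPM of each of 78 of the 86 gene families held by its leading paralog, in percent; points are means and lines run from the lowest to the highest of 10 wildtype vehicle libraries. The leaders run from Pkm at 99.99% down to Bcl11b at 21.2%, and the line is longest for Drd5, from 43.1 to 76.0%.

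Of the calcium signalling families, that of CaMKII was led by Camk2a, which held 76.2 ± 1.99% of the subunits, with 72.7 to 78.5% over the 10 libraries, and Camk2b, the subunit that binds actin, stood at 555 ± 69.3 TPM. Camk2g followed at 146 ± 18.2 TPM. Camk2d, the gene of the isoform carried by the transgene, came last at 14.5 ± 6.70 TPM and held 0.508 ± 0.296% of the family. Camk2d was also the member that varied most, from 0.214 to 1.12% of the family.

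Calmodulin, the calcium sensor that activates CaMKII, was among the most abundant products. Calm3 stood at 2673 ± 122 TPM and Calm2, which encodes the same protein, at 2421 ± 283 TPM (SD, n = 10). Calm3 led in 9 of 10 libraries, and Calm2, at 3153 TPM, was ahead in wildtype vehicle 2. This order rests on length, since Calm2 led with the longest transcript. The calmodulin-binding peptides were led by Nrgn with 70.7 ± 3.04%, ahead of Gap43, a growth cone and axon protein, at 611 ± 55.0 TPM.

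Ppp3ca, the alpha catalytic subunit of calcineurin, held 77.3 ± 1.81% of its family. Among the subunits of protein kinase A, the regulatory subunits Prkar1b, at 756 ± 45.0 TPM, and Prkar1a, at 688 ± 40.3 TPM, stood above the catalytic Prkaca at 332 ± 26.3 TPM and Prkacb at 150 ± 29.7 TPM. Adcy1, the calmodulin-stimulated adenylyl cyclase, held 42.3 ± 1.49% of 9 cyclases and was ahead of Adcy2 in all 10 libraries. Hpca, hippocalcin, a calcium sensor of hippocampal pyramidal cells, stood at 1926 ± 431 TPM and held 41.6 ± 6.93% of its family. Hpca was lowest in wildtype vehicle 1, with 27.5% of the family, and highest in wildtype vehicle 5, with 49.4%.

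Calcium stores and pumps differed in how evenly they were split. Itpr1, the inositol trisphosphate receptor of neurons, held 94.1 ± 1.02% and Atp2a2, the pump of the endoplasmic reticulum, 99.1 ± 0.238%. Ryr2 and Ryr3, ryanodine receptors, stood at 49.8 ± 7.79 and 46.1 ± 7.70 TPM, and Ryr2 was first in 7 of 10 libraries, so their order is within the spread. The plasma membrane pump Atp2b1 held 40.8 ± 5.82%, from 29.3% in wildtype vehicle 1 to 50.6% in wildtype vehicle 2, and was first in 9 of 10.

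Among the glutamate receptors, Gria1, the AMPA receptor subunit whose insertion is tied to potentiation, held 63.4 ± 3.90% of the 4 AMPA subunits. It stood at 776 ± 140 TPM against 258 ± 42.1 TPM for Gria2, the subunit that keeps calcium out, a ratio of 2.47 to 4.29 over the 10 libraries. Gria3 stood at 125 ± 14.8 TPM and Gria4 at 59.4 ± 8.37 TPM. Gria1 led in all 18 other libraries too, and Gria2 was ahead only when the median transcript length was used. Grin1, the obligatory NMDA receptor subunit, stood at 191 ± 26.4 TPM, Grin2b at 128 ± 27.7 TPM and Grin2a at 88.6 ± 16.7 TPM. With no length Grin2b, a long transcript, led that family. The kainate receptors were led by the subunit Grik5 with 66.6 ± 4.28% and the metabotropic receptors by Grm5, which couples to calcium stores, with 40.1 ± 4.98%. Of the TARP subunits that traffic AMPA receptors, Cacng7, at 222 ± 19.7 TPM, was ahead of Cacng8, the form known as hippocampal, at 173 ± 28.8 TPM, in 9 of 10 libraries.

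Among the inhibitory receptors, Gabra5, the GABA-A subunit of extrasynaptic receptors of hippocampal pyramidal cells, stood at 235 ± 36.8 TPM. Gabra3 stood at 153 ± 16.9 TPM and Gabra2 at 125 ± 18.97 TPM. Gabbr1, the ligand-binding subunit of the GABA-B receptor, held 69.5 ± 1.96%.

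Of the receptors for modulators, Chrm1, the muscarinic receptor of pyramidal neurons, held 55.3 ± 2.84%, Adora1, the inhibitory adenosine receptor, 92.9 ± 1.07%, and Cnr1, the cannabinoid receptor of nerve terminals, 99.8 ± 0.105%. Htr1a, an inhibitory serotonin receptor, was first of 13 serotonin receptor genes at 63.0 ± 9.69 TPM. Nr3c2, the mineralocorticoid receptor, was ahead of the glucocorticoid receptor Nr3c1 in all 10 libraries, at 118 ± 22.6 against 58.8 ± 5.77 TPM. Ntrk2, the receptor of BDNF, held 78.9 ± 1.57% of the neurotrophin receptors. Dopamine receptors were low. Drd5 stood at 16.0 ± 3.64 TPM and Drd1 at 6.88 ± 2.94 TPM, and in wildtype vehicle 1 alone Drd1 held more of the family than Drd5, 44.4% against 43.1%.

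On the presynaptic side, Slc17a7, the vesicular glutamate transporter of cortical and hippocampal neurons, held 96.3 ± 1.62%, and Slc17a6, the transporter of thalamic and subcortical neurons, stood at 34.1 ± 12.7 TPM. Vamp2, the synaptobrevin of synaptic vesicles, held 88.0 ± 1.17%, and Syn1 66.0 ± 1.46% of the synapsins. Snap25, its partner in the fusion complex, stood at 1127 ± 103 TPM and its relative Snap47 at 593 ± 19.2 TPM. Syt1, the calcium sensor of fast release, led 16 synaptotagmins with 30.9 ± 1.45%, closely followed by Syt11 at 737 ± 49.8 TPM. Cplx1, at 1244 ± 127 TPM, and Cplx2, at 1049 ± 127 TPM, complexins that clamp the fusion complex, were close, and Cplx2 led with no length. Sncb, beta synuclein, stood at 739 ± 93.0 TPM and led its family in all 10 libraries.

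Among postsynaptic scaffolds, Dlg4, which encodes PSD-95, held 43.8 ± 2.73% of its family and Shank1 57.3 ± 0.558% of the Shanks. The share of Shank1 stayed between 56.5 and 58.3%. Dlgap3 held 43.0 ± 2.55% of the SAPAPs, although Dlgap1 led with the longest transcript, with the median transcript and with no length. Nlgn2, the neuroligin of inhibitory synapses, held 80.2 ± 2.90%. The neurexins were close, with Nrxn2 at 94.0 ± 12.8 TPM and Nrxn3 at 79.6 ± 8.44 TPM.

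Of the ion transporters, Slc12a5, the chloride exporter KCC2 of mature neurons, held 85.8 ± 1.96% of the cation chloride cotransporters. The sodium channels Scn8a, at 145 ± 19.96 TPM, and Scn2a, at 129 ± 19.7 TPM, had overlapping spreads, with Scn8a first in 9 of 10 libraries. Hcn2, a channel of the hyperpolarisation-activated current, stood at 162 ± 19.5 TPM. Kcna2 held 44.1 ± 0.862% of the Shaker channels and Kcnd2 66.4 ± 3.94% of the Kv4 channels.

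Among the cytoskeletal families, Tubb4a held 34.3 ± 1.85% of the beta tubulins, Map1a 33.6 ± 2.04% of the microtubule-associated proteins and Stmn3, a stathmin of neurons, 68.2 ± 0.511%. Map2, the dendritic marker, stood at 452 ± 50.8 TPM beside 678 ± 91.8 TPM for Map1a. Of the metabolic families some were led by forms known from neurons and others by forms known from astrocytes or found in many cells. Eno2, the neuronal enolase, held 93.2 ± 0.467%, Hk1 97.3 ± 0.588% of the hexokinases and Ldhb, the lactate dehydrogenase form known to favour pyruvate, 72.5 ± 1.19%. Actb held 97.6 ± 0.312% of the actins, a share that rests on the low value of Actg1 given above. Apoe held 66.7 ± 1.14% of the apolipoproteins, and Glul, the glutamine synthetase of astrocytes, 77.3 ± 1.16% of its pair with Glud1. The glucose transporters Slc2a3, of neurons, and Slc2a1, of vessels and glia, were even at 92.3 ± 10.7 and 83.6 ± 17.1 TPM.

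Among regulators of transcription, Neurod6, a factor of pyramidal neurons, held 68.3 ± 4.69% of its family at 364 ± 62.6 TPM, and Mef2d 68.0 ± 4.89% of the MEF2 factors. Mef2c, another member, ranged from 8.99 to 20.3% of that family. Bcl11b, a forebrain factor, stood at 81.5 ± 11.95 TPM. Of the histone deacetylases, Hdac3 led class I with 55.0 ± 2.69%, Hdac2 stood at 72.8 ± 4.90 TPM and Hdac1 at 6.58 ± 0.463 TPM. Hdac5 held 65.6 ± 2.00% of class IIa. Kmt2a led the methyltransferases of histone H3 lysine 4 with 32.4 ± 1.15%.

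The share of each family's leader was compared between the 10 wildtype and the 9 transgenic vehicle libraries by a two-sided exact permutation test in the 84 families with at least 2 members at 1 TPM. None of the 84 (0.0%) passed an adjusted p of 0.05, and 0 had an unadjusted p under 0.05. The smallest p was 0.0737, for Egr1 among the EGR factors, where the share was 63.8 ± 3.13% in wildtype and 66.1% in transgenic vehicle libraries (adjusted p = 0.958). The smallest p that this design allows is 1.08e-05. Leaders were chosen on the wildtype values, so this is a comparison of shares and does not show that they are equal.

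Immediate early genes, which neurons transcribe within minutes of activity, were detected. The labels do not give the state of the mice before the tissue was taken. Arc, whose protein acts on AMPA receptor uptake, ran from 75.1 over a median of 98.4 to 210 CPM. Egr1, a zinc finger factor, ran from 72.2 over a median of 112 to 134 CPM and Fos from 3.57 over a median of 6.39 to 13.1 CPM. All 3 were highest in wildtype vehicle 7, where the summed level of the 13 genes was 790 TPM against 363 to 649 TPM in the other 9. The FOS family was led by Fosl2, a slower member, with 55.2 ± 6.14%, and in wildtype vehicle 7 its share was 40.5% while that of Fos was 32.9%. Nr4a2 and Nr4a1, nuclear receptors of this class, stood at 90.6 ± 21.6 and 81.2 ± 18.7 TPM with Nr4a2 first in 7 of 10 libraries.

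The promoter of Fos is shown because Fos is the reference gene of this class and has a low level in these libraries beside a wide spread. It is the 250 bases before the RefSeq start at chr12:85473640-85473889, plus strand, GRCm38.p6, in capitals as above.
Fos: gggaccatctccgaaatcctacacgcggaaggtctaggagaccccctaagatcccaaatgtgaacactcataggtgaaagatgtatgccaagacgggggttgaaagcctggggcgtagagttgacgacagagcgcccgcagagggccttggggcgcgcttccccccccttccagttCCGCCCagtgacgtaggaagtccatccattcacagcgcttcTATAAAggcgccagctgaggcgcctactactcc
TATAAA begins 33 bases before the start, and GGGCGG is matched on the other strand 74 bases before it. Of the 13 genes of the list 9 had a window in the table, of which 7 held GGGCGG, 1 TATAAA and 2, Btg2 and Dusp1, TGACGTCA.

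Marker lists of the cell types that the dissection could hold were summed in TPM. A sum depends on which genes a list has, so lists are compared between libraries and not with each other, and in bulk tissue fewer cells of a type and less RNA per cell cannot be told apart. The 12 CA1 genes summed to 6150 ± 645 TPM, from 5087 in wildtype vehicle 1 and 5103 in wildtype vehicle 2 to 6976 in wildtype vehicle 5. Inhibitory neurons were plainly present, with Gad1 and Gad2, which make GABA, at 196 ± 13.9 and 130 ± 11.9 TPM. Their most abundant transcript was Sst, the peptide somatostatin, at 1393 ± 183 TPM and rank 41 of all genes. Cck, another neuropeptide, stood at 720 ± 70.9 TPM, a level that bulk tissue cannot assign to interneurons alone. Npy stood at 269 ± 46.0 TPM, Pvalb, parvalbumin, at 179 ± 29.7 TPM and Vip at 30.2 ± 3.07 TPM.

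Glial markers were detected as well, and all 9 astrocyte and 11 oligodendrocyte genes reached 1 CPM in all 10 libraries. Slc1a2, the glutamate transporter of astrocytes, stood at 1196 ± 102.2 TPM, Aldoc, an astrocyte aldolase, at 1008 ± 75.5 TPM and Gfap, an intermediate filament protein, at 306 ± 43.0 TPM. The astrocyte list was even between libraries, at 3256 ± 155 TPM. Oligodendrocytes varied more, at 3714 ± 571 TPM for 11 genes, from 2613 in wildtype vehicle 10 to 4486 in wildtype vehicle 5. Mbp, a protein of compact myelin, stood at 1119 ± 188 TPM and was lowest in wildtype vehicle 10. Pdgfra and Cspg4, which mark the precursors of these cells, stood at 31.7 ± 2.58 and 10.97 ± 1.77 TPM.

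The 10 microglial and 10 endothelial genes also reached 1 CPM in all 10 libraries. Cx3cr1 and P2ry12, receptors of resting microglia, stood at 51.2 ± 7.04 and 51.0 ± 8.93 TPM. Cldn5, claudin 5 of the endothelial barrier, stood at 47.2 ± 14.9 TPM, and Flt1, a VEGF receptor, at 17.4 ± 4.63 TPM with 5.17 TPM as the lowest value. The pericyte markers Pdgfrb and Acta2 stood at 21.8 ± 4.04 and 9.70 ± 3.00 TPM. Red blood cell genes summed to 499 TPM in wildtype vehicle 2 and to 113 to 185 TPM in the other 9.

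Markers of neighbouring regions were detected too, and some listed genes, such as Calb2, are also made by interneurons, as background. Prox1 and Dsp, which mark dentate granule neurons, stood at 12.8 ± 5.39 and 3.65 ± 3.69 TPM, and their list ran from 36.6 TPM in wildtype vehicle 2 to 96.1 TPM in wildtype vehicle 4. Rgs14 and Amigo2, used as markers of CA2, stood at 103 ± 23.7 and 15.6 ± 5.62 TPM. For CA3, Bok stood at 28.4 ± 5.55 TPM and Iyd at 0.798 ± 0.894 TPM, while the highest of the 7 genes listed, Spock1, stood at 83.0 ± 10.4 TPM. Tshz2 and Fn1, markers of subiculum and deep cortex, stood at 11.2 ± 5.53 and 39.1 ± 9.80 TPM. Of the thalamic list, which summed to 99.6 ± 23.6 TPM, Tcf7l2, a thalamic factor, stood at 2.28 ± 0.392 TPM and its highest member Calb2, calretinin, at 38.0 ± 16.1 TPM. Of the striatal list, which summed to 92.3 ± 8.13 TPM, Drd2 and Adora2a, receptors of striatal neurons, stood at 2.78 ± 0.749 and 1.65 ± 0.462 TPM and its highest member Ppp1r1b, the phosphatase inhibitor DARPP-32, at 61.5 ± 7.49 TPM. Ttr, the transporter made by choroid plexus, ran from 6.19 to 87.4 TPM, highest in wildtype vehicle 3, while Kl, another choroid plexus gene, stayed at 1.66 ± 0.236 TPM.

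**Figure D3:**
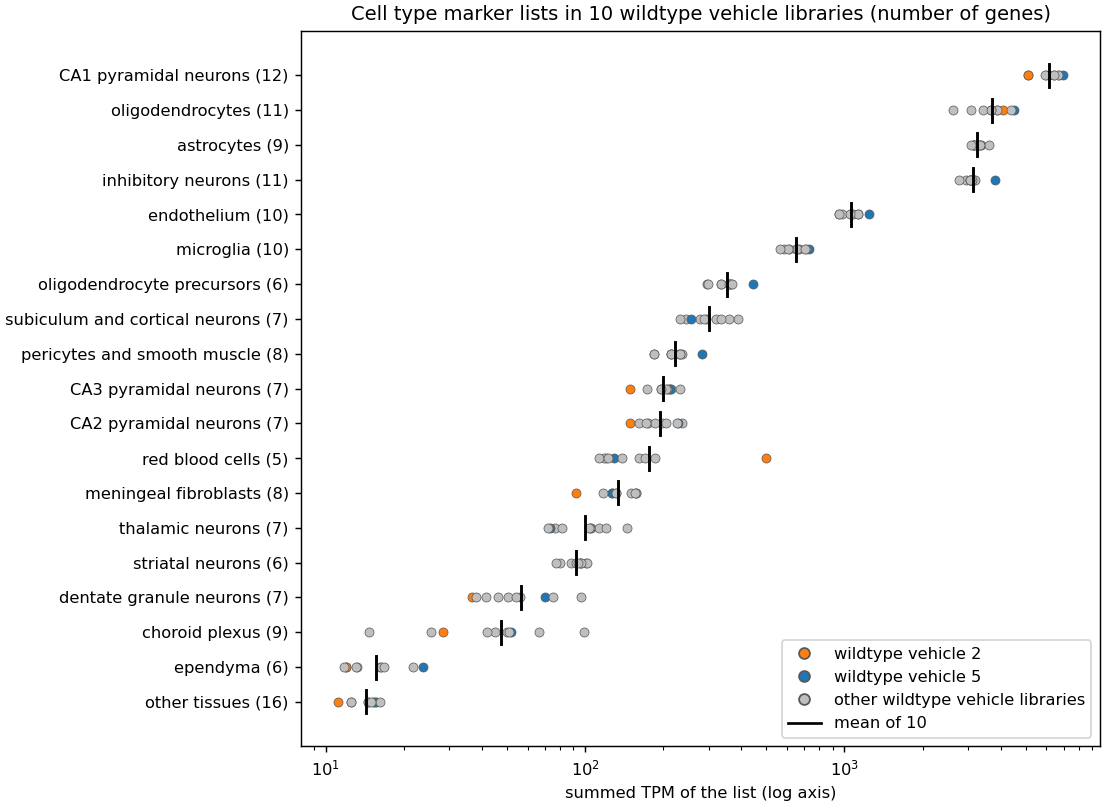
Summed TPM, on a log axis, of marker lists of cell types, with the number of genes in parentheses; each point is 1 of 10 wildtype vehicle libraries, with libraries 2 and 5 in colour, and black lines are means. The red blood cell list stands at 499 TPM in wildtype vehicle 2 and at no more than 185 TPM in the others, and the choroid plexus list spreads from 14.7 to 98.96 TPM.

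Variation between the 10 libraries was measured for 14782 genes with a mean of 1 CPM or more, as the gene-wise biological coefficient of variation (BCV), the relative spread beyond counting error. Its median was 0.0961, and 90.8% of genes were under 0.2. By this measure Cpe was at 0.0523, Calm3 at 0.0616, Wfs1 at 0.0925, Nrgn at 0.1002 and Camk2a at 0.154. Fibcd1 was at 0.337 and at rank 259 of the 14782, and Camk2d at 0.443 and at rank 107. The steadiest genes above 20 CPM shared the lowest value the estimate can take, 0.00988, which 85 genes reached. The most abundant of these were Hnrnpul1, an RNA-binding protein, at 107 ± 1.75 CPM, Afg3l2, a mitochondrial protease, at 97.8 ± 2.47 CPM and Plpbp, a pyridoxal phosphate binding protein, at 97.4 ± 2.15 CPM.

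The 40 most variable genes, from a BCV of 4.01 for Uty to 0.602 for Gm13341 (the next, Prss8, was at 0.5999), fell into a few groups by the libraries in which they were high. The first 6 were genes of the sex chromosomes. Ddx3y, an RNA helicase gene of the Y chromosome, stood at 40.9 to 60.1 CPM in wildtype vehicle 2, 4, 8 and 9 and at no more than 0.0889 CPM in the other 6. Xist, the RNA of the inactive X chromosome of females, stood at 653 to 1014 CPM in those 6 and at 0.424 to 0.763 CPM in the 4. The 2 measures did not overlap in any library and split the 10 into 4 and 6. By these transcripts the 4 libraries read as male and the 6 as female.

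Another group was highest in wildtype vehicle 1, which gave the highest value of 20 of the 40 genes. For 15 of the 40 the 5 highest libraries were wildtype vehicle 1, 2, 6, 8 and 10. This set was taken from Camk2d, whose 5 highest libraries they are. How many of all 14782 ranked genes share it was not counted, so the 15 cannot be set against that share. Dsc3, a desmosomal cadherin, stood at 8.41 to 17.3 CPM in those 5 and at 0.133 to 4.35 CPM in the other 5, and Cbln1, a synapse organiser released by neurons, at 8.87 to 25.3 CPM against 2.51 to 4.68 CPM. Tnnt2, a troponin, Cd44, a hyaluronan receptor, and Col24a1, a collagen, had the same 5 highest libraries. These sets of libraries were read off the values and are no groups of the study.

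A few genes were high elsewhere. Dsp, a desmosomal protein strong in dentate granule cells, stood at 28.1 CPM in wildtype vehicle 4, 18.8 in wildtype vehicle 7 and 10.9 in wildtype vehicle 5, and at no more than 6.08 CPM in the other 7. Il16, a cytokine, ran from 2.38 CPM in wildtype vehicle 2 to 12.5 CPM in wildtype vehicle 4. Lgr6, a receptor for R-spondins, was also highest in wildtype vehicle 4, at 10.6 CPM. Prox1, the other defining dentate gene, stood at 49.6 CPM in wildtype vehicle 4 and 39.6 in wildtype vehicle 7, above the 16.4 to 30.1 CPM of the other 8, and the part of granule cells in the values of Dsp was not tested.

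Others peaked in 1 library, though of the 40 genes only Prl took over 50% of its summed CPM from it. Prl, the pituitary hormone prolactin, took 51.3% of its summed CPM from wildtype vehicle 5, at 6.31 CPM against a median of 0.412 CPM, and Gh, growth hormone, was also highest there at 1.45 CPM. Pomc, a hormone precursor, was highest in wildtype vehicle 6 instead, at 6.24 CPM. Hba-a1, alpha globin, stood at 29.7 CPM in wildtype vehicle 2 and at 4.02 to 9.30 CPM in the other 9. Gm23935, Mir6236 and Gm15564 were all highest in wildtype vehicle 1, at 24.4, 36.7 and 32.2 CPM, with wildtype vehicle 2 next. Genes of the rRNA class also held their largest shares of counts there, 0.0583% in wildtype vehicle 1 and 0.0260% in wildtype vehicle 2. The other wildtype libraries had 0.00943 to 0.0235%, and the part of this measure in the values was not tested. Zfp738, a zinc finger gene, stood at 5.23 to 9.58 CPM in wildtype vehicle 1, 3 and 4 and at 0.444 to 1.08 CPM in the other 7, with no value between.

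The same ranking was made in the other groups, which did not choose it. Of the 40 genes 23 were also among the 40 most variable of 14791 genes in transgenic vehicle libraries, 21 among those of 14841 genes in vorinostat libraries and 15 in both. As a share this is 57.5% and 52.5% of the 40, which are themselves 0.271% of the genes ranked. The 15 include the sex chromosome genes Uty, Eif2s3y, Ddx3y, Gm29650, Kdm5d and Xist. These were at ranks 1 to 6 in transgenic vehicle and within ranks 1 to 8 in vorinostat libraries, so the shares say less about the other genes.

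**Figure D4:**
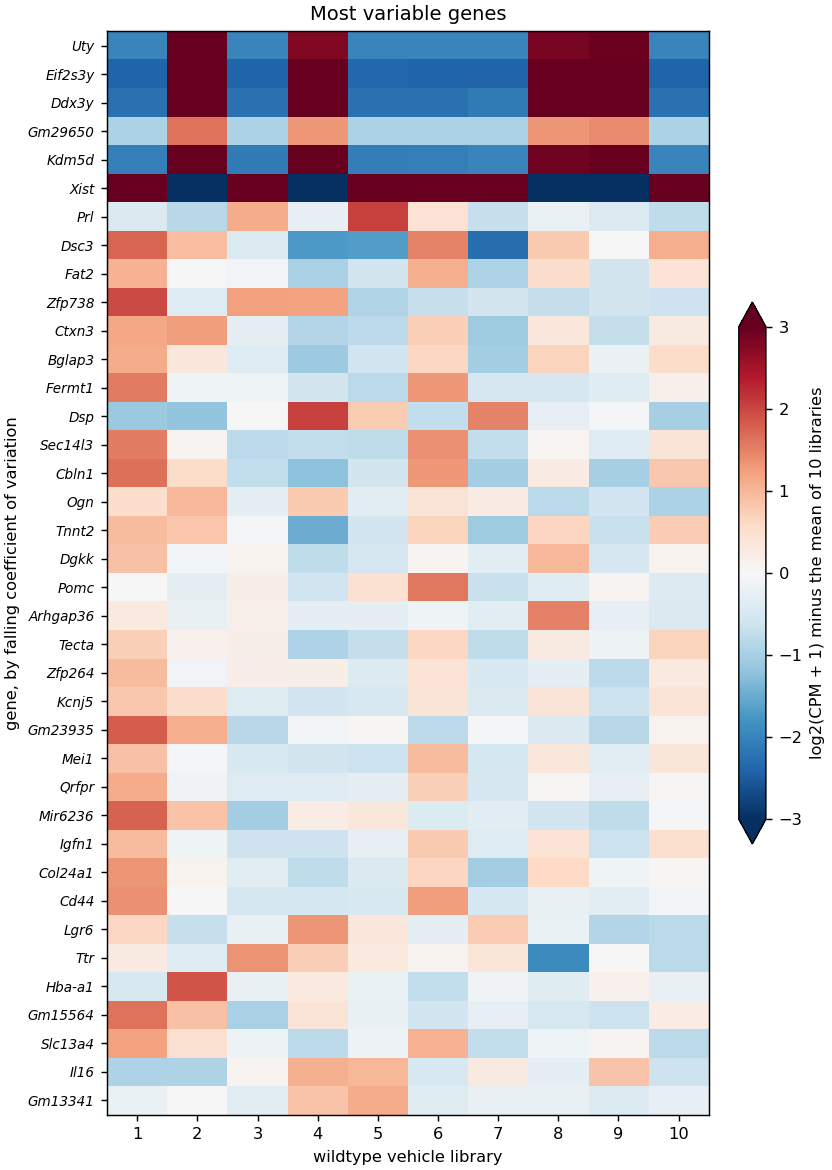
Shown are 38 of the 40 most variable genes (rows, by falling BCV) in the 10 wildtype vehicle libraries (columns), as log2(CPM + 1) minus the mean of the 10, from blue for below to red for above. Y-linked genes are red in libraries 2, 4, 8 and 9 and Xist in the other 6, and Dsc3 is red in libraries 1, 2, 6, 8 and 10.

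The same 5 libraries were also the highest for some better known genes, which were named with their values seen. Camk2d (ENSMUSG00000053819; GRCm38 chromosome 3, 126596302 to 126846326, plus strand) stood at 143, 110, 108, 93.8 and 87.0 CPM in wildtype vehicle 1, 6, 10, 2 and 8, and at 39.7 to 56.3 CPM in the other 5. Tshz2 stood at 27.1 to 35.03 CPM in the former and 8.29 to 15.2 CPM in the latter, and Slc17a6 at 51.1 to 71.5 against 23.7 to 36.0 CPM. Drd1, the dopamine D1 receptor, stood at 7.36 to 8.96 against 3.07 to 5.03 CPM, and Mef2c at 147 to 209 against 81.4 to 107 CPM. None of these ranges overlap. For Camk2d this follows from the choice of the set, and the share of all genes with such ranges was not counted.

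Several CA1 genes ran the opposite way. Camk2a stood at 3099 to 3892 CPM in wildtype vehicle 1, 2, 6, 8 and 10 and at 4449 to 4912 CPM in the other 5. Fibcd1 stood at 150 to 276 against 312 to 423 CPM. Nrgn stood at 624 to 700.8 against 700.1 to 900 CPM, ranges that overlap. Hpca stood at 758 to 1424 against 1379 to 1727 CPM, ranges that overlap through wildtype vehicle 2 and 3. Wfs1 did not share this direction and was the higher in the former 5, at 295 to 362 against 260 to 291 CPM. Prkacb, a catalytic subunit of protein kinase A, went with Camk2d, at 346 to 407 against 240 to 287 CPM, while Prkaca stood at 175 to 209 CPM over all 10. These genes too were named with their values seen, and the rest of the CA1 list is not given gene by gene. The share of all genes with such ranges was not counted.

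**Figure D5:**
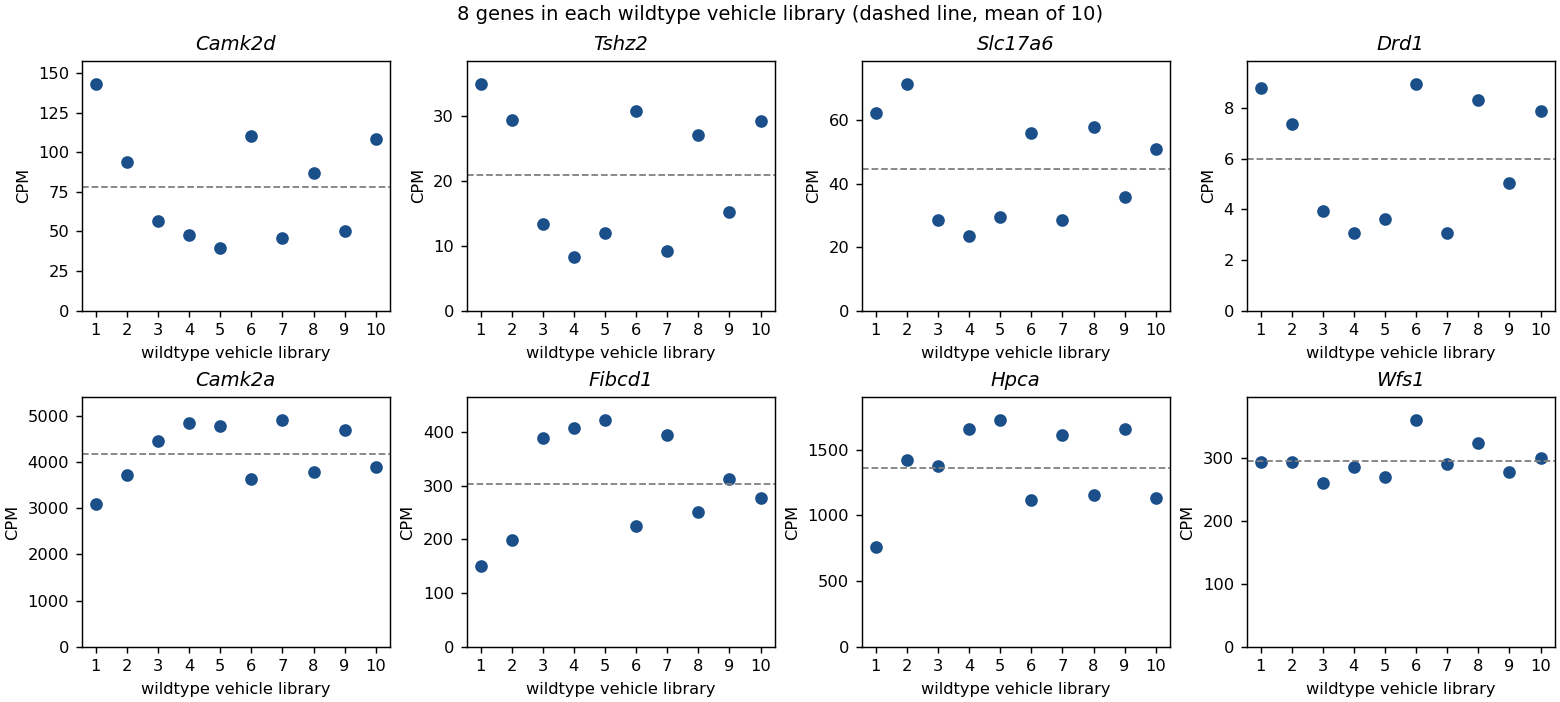
CPM of 8 genes in each of the 10 wildtype vehicle libraries, with the mean as a dashed line and the axis from 0. Camk2d, Tshz2, Slc17a6 and Drd1 are high in libraries 1, 2, 6, 8 and 10, where Camk2a and Fibcd1 are low, and Wfs1 stays between 260 and 362 CPM.

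Because these sets of libraries were read off the same values, no correlation is given over the 10. Instead 4 pairs of genes noticed there were tested in the 18 transgenic libraries, with 100000 permutations and adjustment over the 4. In these libraries counts per gene do not tell endogenous Camk2d reads from reads of the transgene. Camk2d and Camk2a were inversely related, with Pearson's r = -0.701 (permutation p = 0.00122, adjusted 0.00488) and Spearman's rho = -0.686 (permutation p = 0.00218, adjusted 0.00872). Without the 2 libraries farthest from the median of Camk2d r was -0.688, and it was -0.808 within transgenic vehicle and -0.575 within vorinostat libraries (n = 9 each). Camk2d and Tshz2 were related at r = 0.633 (permutation p = 0.00506, adjusted 0.0101) and rho = 0.645 (permutation p = 0.00460, adjusted 0.00920), with r = 0.495 without the 2 farthest libraries, and 0.735 and 0.574 within the groups.

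For Camk2d and Fibcd1 the call depended on the measure, with r = -0.551 (permutation p = 0.0185, adjusted 0.0247) and rho = -0.441 (permutation p = 0.0692, adjusted 0.0923). Without the 2 farthest libraries r was -0.490, and within the groups -0.662 and -0.422. Prkacb and Prkaca were not related past the threshold, with r = -0.110 (permutation p = 0.666, adjusted 0.666) and rho = -0.253 (permutation p = 0.313, adjusted 0.313), with r = -0.251 without the 2 farthest and -0.00513 and -0.0764 within the groups. The libraries high in Camk2d were also those with more Tshz2 and Slc17a6, markers of subiculum and thalamus, and the part of neighbouring tissue in these relations was not tested. For the subiculum and cortex list, all 7 genes reached 1 CPM in all 10 libraries and their sum ran from 294 to 390 TPM in wildtype vehicle 1, 2, 6, 8 and 10 and from 232 to 287 TPM in the other 5. The thalamic list, also with 7 of 7 genes at 1 CPM, ran from 104 to 145 against 72.2 to 113 TPM, and the striatal list, with 5 of 6, from 93.6 to 101 against 77.2 to 95.8 TPM. The CA1 list ran from 5087 to 6119 TPM in the former 5 and from 6438 to 6976 TPM in the latter. Most of its mean sum of 6150 TPM came from Camk2a, at 2322 TPM, and Nrgn, at 2027 TPM. Camk2a was named above from these same libraries, so the sum largely repeats it and does not speak for the whole list. Wfs1, also on the list, went the other way.

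Whether any gene described here differed in the transgenic groups was tested with edgeR's quasi-likelihood test over all 28 libraries. The model held no term for sex. The Y-linked list summed to 47.7 ± 61.8 TPM in wildtype and 77.9 ± 59.5 TPM in transgenic vehicle libraries, with a mean of 65.6 TPM in vorinostat libraries. Of 17009 genes tested, 0 (0.0%) were called at an adjusted p of 0.05 between wildtype and transgenic vehicle libraries, with 227 at an unadjusted p under 0.05, and DESeq2 called 0. Against transgenic vorinostat 0 of 17009 (0.0%) were called, with 2141 at an unadjusted p under 0.05, and DESeq2 again called 0. Without wildtype vehicle 2 the latter count was 3. The smallest p of the first comparison was that of Bcl6b, a transcriptional repressor of endothelium, at 1.18 ± 0.262 CPM in wildtype and 1.70 ± 0.277 CPM in transgenic vehicle libraries (log2 difference 0.52, SE 0.147, edgeR adjusted p = 0.9998). In the second it was that of Adm, the vasodilator peptide adrenomedullin, at 1.07 ± 0.259 CPM in wildtype and 1.63 ± 0.172 CPM in vorinostat libraries (log2 difference 0.58, SE 0.123, edgeR adjusted p = 0.384). Camk2d had a log2 difference of -0.30 (SE 0.228, edgeR adjusted p = 0.9998) in transgenic vehicle against wildtype libraries. Counts per gene do not tell reads of the endogenous gene from reads of the transgene.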

How the data were processed

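RNA with poly(A) tails from CA1 was measured in 28 libraries, 10 of which are described. The authors deposited raw counts of reads per gene. The submitters' processing notes list FastQC 0.11.5, STAR 2.5.2b, Subread 1.5.1 with featureCounts, and the mm10 build. Annotation release, strand setting and the handling of reads that match several genes: not given in the sources used here. A further deposited table holds the authors' adjusted expression scores for 18014 genes, made with a mixed linear model according to its name, on a log scale whose base is not stated. It entered 1 alternative only, and a deposited module table was not used here.

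Of 48709 identifiers, 48349 (99.3%) had a symbol and an exon length in GENCODE release M21 (GRCm38). The others held 0.0522% of wildtype counts. TPM used merged exon length. Scaling, tests and BCV (unmoderated gene-wise dispersion) used edgeR 4.0.16 in R 4.3.3, with TMM, a filter at a count of 10 and a total of 15, and Benjamini-Hochberg adjustment. DESeq2 1.42.0 was an alternative. The model code was tested on simulated data. Errors are SDs over libraries, and every library held at least 20230085 counts.

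Groups came from titles. The rule for named genes took the 30 highest by TPM, the leader and runner-up of each family, the defining and highest members of marker lists, the 40 highest and 10 lowest by BCV, the 10 highest long noncoding RNAs, the genes of smallest p, and Camk2d. Some further family members were named after their values were seen. Some genes are not reported here. Members and lists were chosen with earlier results of these data known.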

Additional observations from a re-analysis of the deposited data

Results flagged for a closer look

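Of 111 values tested over the 10 wildtype libraries (library measures, list sums and leader shares), 24 had 1 library whose gap to the nearest other passed Dixon's 95% critical value, where chance gives about 1 in 20. They are not independent of each other, since 14 came from wildtype vehicle 2 and 5 from wildtype vehicle 5.

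Wildtype vehicle 2 stood apart in its mitochondrial share of counts (6.41%), its mitochondrial sum (174900 TPM), the shares of its 10 and 100 leading genes (7.27 and 19.3%), hemoglobin (101.2 CPM) and the red blood cell list (499 TPM). It was high in the share of Nefl, a neurofilament chain (47.4%), Ywhae, a 14-3-3 protein (34.7%), and Neurod6 (79.98%). It was low in the share of Vamp2 (84.9%), Nlgn2 (72.97%), Slc12a5 (80.5%), Map1a (28.4%) and Mef2d (56.3%).

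Wildtype vehicle 5 was highest in total counts (33191857), the inhibitory neuron list (3798 TPM), the oligodendrocyte precursor list (444 TPM) and the shares of Dlg4 (50.3%) and Dlgap3 (49.4%). The astrocyte list was highest in wildtype vehicle 9 (3609 TPM), where the share of Pkm, the muscle and brain pyruvate kinase, was lowest (99.97%). The share of Ppp3ca was lowest in wildtype vehicle 1 (73.15%), that of Adcy1 in wildtype vehicle 3 (38.5%) and that of Fosl2 in wildtype vehicle 7 (40.5%).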

How the results depend on the processing

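With nuclear genes only, the 10, 100 and 1000 most abundant genes held 3.64, 14.8 and 47.5% of counts. With the median transcript length 15 of the 30 dominant transcripts were shared with the list above, and with the longest transcript 27. Of the 40 most variable genes 16 were shared when a mean of 5 CPM was asked for, which leaves fewer genes to rank, 25 with the SD of log2(CPM + 2), and 17 with the SD in the authors' adjusted table, an alternative chosen after seeing the data, and 32 to 38 when 1 library was left out. For the comparison with vorinostat, edgeR called 0 to 3 genes when wildtype vehicle 1 or 2 was left out, and 1 with the replicate number as a block. The block gave 0 calls against transgenic vehicle. Over 27 pairs of libraries with the same title number the correlation ran from -0.339 to 0.408. Of these pairs 7 were over 0.1, and 3 of 27 libraries correlated best with their own number. Equal title numbers often stand for different numbers in the authors' sample codes, mostly for transgenic vehicle libraries. Neither this check nor the block can therefore exclude a pairing of the samples. All 276 recomputed sums of marker lists moved by less than the SD over libraries. Genes detected in all 10 libraries numbered 15119 at 0.5 CPM and 11017 at 5 CPM, and 65 to 75 of 86 family leaders were kept under other lengths or none. The counts of calls under the settings not named here were 0. Depth limits genes near 1 CPM most.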
